A study of Mus musculus with 8 samples.

Results

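On chromosome 10 of CH12 cells, replication initiation sites (ISs) past 53.66 Mb (mm9) had a lower read density in Rif1KO than in WT cells, by a median of 0.45 on the log2 scale, and those before it did not. The ISs described here, called distal, are those centred from 53.66 Mb to the end of the chromosome at 129993255, and the ISs before that position are called proximal. The boundary was chosen by the Rif1KO against WT fold changes themselves, so values of that contrast describe the distal ISs and support nothing. In the table of Rif1KO against WT, 2038 of 39116 ISs were distal (5.21%) and 661 were proximal (1.69%). In the table of Rif1KO_shMcm6 against Rif1KO_shLacZ, 3799 of 129937 ISs were distal (2.92%) and 2543 were proximal (1.96%).

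CH12 is a mouse B cell lymphoma line, and all cells were cultured with IL4, CD40 and TGF beta stimulation. Short nascent strand sequencing (SNS-seq) was done on 8 libraries in 4 groups of 2: WT, Rif1KO, and Rif1KO cells that a lentivirus had given a hairpin against LacZ (Rif1KO_shLacZ, the control hairpin) or against Mcm6 (Rif1KO_shMcm6). Both hairpin groups thus lacked RIF1 and had gone through infection and puromycin selection, which WT and Rif1KO cells had not. Which Rif1KO clone each library came from is not given in the sources used here, and the files hold 1 value per condition, pooled over replicates, so replicate error is unknown and no test over samples could be made. The values rest on 3350255 WT, 3724571 Rif1KO, 21071351 Rif1KO_shLacZ and 23602750 Rif1KO_shMcm6 reads inside ISs.

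A replication origin is licensed in G1 by loading of the MCM helicase, of which MCM6 is a subunit, and fires in S phase once kinases activate that helicase. RIF1 is a chromatin protein that brings a phosphatase to MCM complexes and is known as a regulator of when domains replicate. SNS-seq purifies short leading strands that still carry an RNA primer, so the reads at an IS reflect how often replication starts there in the population. G-rich stretches that can fold into G-quadruplexes (G4) are a known feature of many mammalian ISs. No input library was used, and in bulk cells a lower density can mean fewer cells starting there, less nascent DNA per cell or fewer copies of the region; these cannot be told apart here.

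The sequences below, the central 300 bases of 5 ISs read from the plus strand of mm9, show the points that the results turn on. Capitals mark a G4 motif, searched as 4 runs of GGG with 1 to 7 bases of any kind (N) between neighbouring runs, on both strands and with overlaps allowed. The motif occurred in 5.56% of all windows of this length tiled over the distal region and in 4.56% of those over the proximal region. The first pair are the last proximal and first distal IS of the Rif1KO against WT table, both inside introns of Man1a (chr10:53624594-53795602, minus strand), a Golgi mannosidase gene in which the boundary lies. The next is the last shared IS before a second step in density, described further on. The last pair begins with an intergenic IS that was among the densest distal ISs of WT and Rif1KO_shLacZ cells. It ends with a distal IS that was 0.99 lower on the log2 scale in Rif1KO than WT and 1.29 higher with the Mcm6 hairpin.
last proximal IS, chr10:53642192-53642491: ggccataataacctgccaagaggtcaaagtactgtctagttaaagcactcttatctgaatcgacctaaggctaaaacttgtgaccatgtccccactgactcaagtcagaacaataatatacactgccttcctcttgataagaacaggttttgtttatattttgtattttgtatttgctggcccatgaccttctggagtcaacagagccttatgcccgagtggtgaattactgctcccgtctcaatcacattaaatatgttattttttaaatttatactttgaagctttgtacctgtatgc
first distal IS, chr10:53664583-53664882: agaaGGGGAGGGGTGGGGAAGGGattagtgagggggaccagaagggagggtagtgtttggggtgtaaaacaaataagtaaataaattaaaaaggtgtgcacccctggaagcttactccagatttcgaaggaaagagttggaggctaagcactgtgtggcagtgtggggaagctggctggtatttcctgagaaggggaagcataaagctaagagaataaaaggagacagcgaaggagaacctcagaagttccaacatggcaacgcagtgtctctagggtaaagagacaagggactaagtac
last shared IS before the second step, chr10:107506536-107506835: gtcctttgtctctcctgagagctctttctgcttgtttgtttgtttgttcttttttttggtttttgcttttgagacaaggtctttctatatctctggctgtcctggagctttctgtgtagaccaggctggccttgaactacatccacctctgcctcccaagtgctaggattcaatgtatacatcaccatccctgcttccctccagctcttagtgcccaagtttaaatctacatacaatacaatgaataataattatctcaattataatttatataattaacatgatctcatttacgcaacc
dense IS near Ntn4, chr10:93088391-93088690: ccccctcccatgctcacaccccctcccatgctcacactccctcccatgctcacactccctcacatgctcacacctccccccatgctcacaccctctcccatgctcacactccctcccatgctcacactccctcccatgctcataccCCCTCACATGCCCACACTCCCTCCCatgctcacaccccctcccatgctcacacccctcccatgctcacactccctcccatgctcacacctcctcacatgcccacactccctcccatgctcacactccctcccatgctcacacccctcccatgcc
IS near Usp44, chr10:93237362-93237661: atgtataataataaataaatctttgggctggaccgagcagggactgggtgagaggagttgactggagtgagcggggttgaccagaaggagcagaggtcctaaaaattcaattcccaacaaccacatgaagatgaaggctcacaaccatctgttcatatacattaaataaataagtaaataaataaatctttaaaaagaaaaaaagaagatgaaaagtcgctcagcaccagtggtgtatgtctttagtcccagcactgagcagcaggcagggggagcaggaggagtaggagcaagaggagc

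These letters differ in base composition. The first distal IS carries a G4 motif on the plus strand, and the IS near Ntn4 carries one on the minus strand, where it shows as runs of C. The other 3 windows hold no match to the motif, which says only that these letters are not in the window. GC content of the windows ran from 38.7% at the last proximal IS to 63.0% at the IS near Ntn4.

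In Rif1KO against WT cells, the distal ISs shifted down together. Their median density was 4.75 log2 RPM (the deposited depth-scaled read density, reads per 1e6 reads inside ISs) in WT and 4.27 in Rif1KO cells, on medians of 90 and 72 reads per IS. The median log2 fold change was -0.45 (95% interval of the median -0.46 to -0.44, from order statistics over ISs), which is 0.733 times the WT density. Proximal ISs had medians of 4.34 and 4.35 log2 RPM and a median change of 0.06, and ISs of the other autosomes had 0.03. Of the 2038 distal ISs, 1999 (98.1%) were below 0, against 41.6% of the proximal ISs. At the 1.5-fold threshold of the study, 592 distal ISs were lower (29.0%, Wilson 95% interval 27.1 to 31.1%), where the table as a whole had 2.7%. That share was 45.9% for distal ISs called in WT only and 18.5% for those called in both conditions, where the same classes of the other autosomes had 8.42% and 0.314%. None of the distal ISs was higher by 1.5-fold (0 of 2038, with a Wilson upper limit of 0.188%), where the table had 2.27%. Since this contrast set the boundary, these counts are a description.

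The values on both sides of the boundary were as follows. The 3 proximal ISs nearest to the boundary had log2 fold changes of -0.15, -0.28 and 0.18, the last of them on 126 WT and 159 Rif1KO reads. The first 3 distal ISs had -0.47, -0.25 and -0.29, the first of them on 151 and 121 reads. The counting error of such a value was between 0.17 and 0.27, so single ISs on both sides overlapped, and it is the run of ISs that places the boundary. Between the last proximal and the first distal IS lay 22.4 kb, all of it inside Man1a. With shared ISs alone the best split of the same ratio fell between ISs centred at 53463367 and 53497489, before Man1a, and the shared ISs on either side of the boundary are 359 kb apart, so its place depends on the ISs used.

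Along the distal region the shift was present throughout. In bins of 5 Mb counted from the boundary, the median fold change ranged from -0.56 to -0.31 over 16 distal bins and from -0.03 to 0.16 over 11 proximal bins, so the bins of both parts did not overlap. The lowest median belonged to the bin from 25 to 30 Mb past the boundary, which also held the most ISs of any bin, 217. Single distal ISs varied around their median with a standard deviation of 0.25, the same as for proximal ISs and close to the typical counting error of 0.23.

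**Figure D1:**
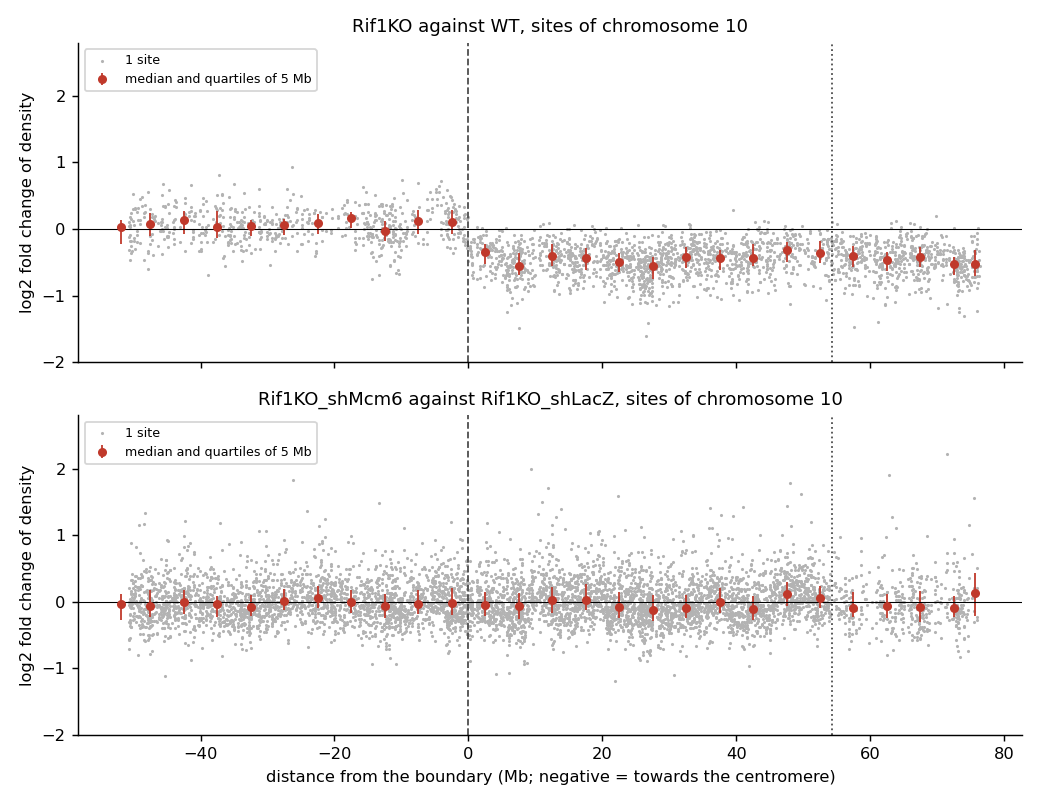
Log2 fold change of density (y axis) of every IS on chromosome 10 against its distance from the boundary in Mb (x axis), for Rif1KO against WT (top) and Rif1KO_shMcm6 against Rif1KO_shLacZ (bottom). Grey points are ISs, red points with bars are medians and quartiles of 5 Mb bins, the dashed line is the boundary and the dotted line the second step. In the top panel all 16 distal bin medians lie between -0.56 and -0.31, and in the bottom panel they lie between -0.12 and 0.13.

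GC content and gene context moved with the size of the change, and did so outside the distal region too. From the lowest to the highest of 4 classes of GC content, equal in size over all autosomal ISs, the median change of distal ISs went from -0.36 to -0.55, and that of ISs on the other autosomes from 0.14 to -0.07. Within each class the distal ISs were lower than those of the other autosomes by nearly the same amount, with differences between -0.5 and -0.47. By mean density this difference was -0.6 in the lowest class and -0.43 in the highest. Distal promoter ISs, those within 1 kb of a protein-coding transcription start, had a median of -0.61 (-0.68 to -0.56, 136 ISs), and distal intergenic ISs had -0.42 (-0.44 to -0.41, 1161 ISs). The same 2 classes had -0.12 and 0.06 on the other autosomes. Across ISs, the Spearman correlation of the change with GC content was -0.3 over 2038 distal ISs and -0.34 over 36255 ISs of the other autosomes. Neighbouring ISs share base composition and libraries, so these are descriptions.

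Peak calling followed the densities. Of the distal ISs in this table, 854 (41.9%) were called in WT cells only, against 11.3% of the proximal ISs and 12.6% of those on other autosomes. Only 119 distal ISs (5.84%) were called in Rif1KO cells alone, against 42.7% of the proximal ones. The list of WT cells held 25.2 ISs per Mb in the distal region and 7.06 per Mb in the proximal region, where the other autosomes had 10. In Rif1KO cells the distal region had 15.6 per Mb, the proximal region 10.9 and the other autosomes 13.5. The distal region thus stood far above the other autosomes in WT cells and near them in Rif1KO cells. Of the WT ISs in the distal region, 55.6% overlapped an IS of the Rif1KO list, against 80.2% in the proximal region and 80.4% on the other autosomes.

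The hairpin libraries, which had no part in choosing the boundary, showed no step at 53.66 Mb between each other. With the Mcm6 hairpin the median log2 fold change of the 3799 distal ISs was -0.04 (-0.05 to -0.02), that of the proximal ISs was -0.03 and that of the other autosomes -0.01. Median densities of the distal ISs were 2.7 log2 RPM in Rif1KO_shLacZ and 2.71 in Rif1KO_shMcm6 cells, on medians of 137 and 154 reads. The distal median minus the proximal one was 0.00, with an interval of -0.02 to 0.01. Of the distal ISs, 176 (4.63%, 4.01 to 5.35%) were higher with the Mcm6 hairpin by 1.5-fold, where the whole table had 4.8%. A further 78 (2.05%, 1.65 to 2.55%) were lower, where the table had 1.51%. Among distal ISs called in both hairpin groups, 1.25% were higher and 0.849% lower, where the same class of the other autosomes had 1.32% and 0.752%. In this table the distal bins ran from -0.12 to 0.13 and the proximal bins from -0.08 to 0.05, so they overlapped. The 3 ISs before the boundary had -0.48, -0.37 and 0.03, and the 3 after it -0.51, -0.04 and -0.18.

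**Figure D2:**
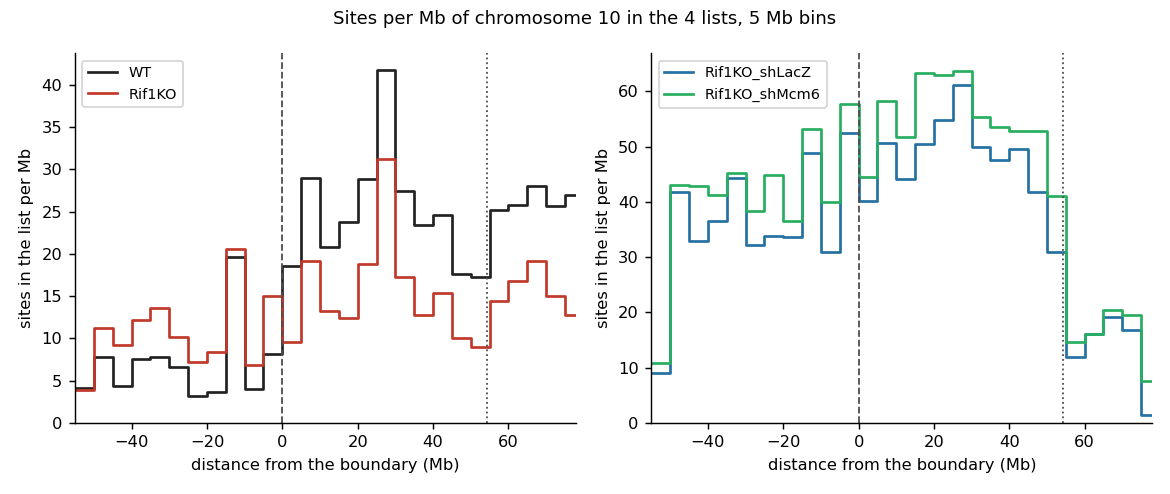
Number of ISs per Mb in 5 Mb bins (y axis) against the distance from the boundary in Mb (x axis), for the lists of WT and Rif1KO (left) and of both hairpin groups (right). The dashed line is the boundary and the dotted line the second step. In WT the count rises at the boundary, and in both hairpin groups it drops at the second step, from 40.2 to 63.8 per Mb in the inner distal bins to 1.5 to 20.4 per Mb in the outer ones. The bin from 50 to 55 Mb holds the step and is in neither range, with 31 per Mb in Rif1KO_shLacZ and 41 in Rif1KO_shMcm6.

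A second step appeared when the hairpin libraries were set against the other libraries. Both tables were scaled separately, so ratios across them were taken at ISs that overlap exactly 1 IS of the other table and were centred on such ISs of the other autosomes. This left 1406 distal, 516 proximal and 29544 other ISs. Within the distal ISs, the position that best separates the ratio of Rif1KO_shLacZ over Rif1KO into a higher and a lower stretch had its midpoint at 107.91 Mb. The ratio of Rif1KO_shMcm6 over Rif1KO gave the same position. It was chosen on these ratios, after seeing them, so what follows describes it. The 54.25 Mb between boundary and step are called inner distal (1142 shared ISs) and the last 22.08 Mb outer distal (264 shared ISs).

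In the outer distal region both hairpin groups were low. Rif1KO_shLacZ over Rif1KO had a median of -0.73 (-0.77 to -0.66), or 0.602 times, and 247 of 264 ISs were below 0. Rif1KO_shMcm6 over Rif1KO had -0.71 (-0.79 to -0.63), with 244 of 264 below 0. In the inner distal region the medians were 0.00 for both, with intervals of -0.03 to 0.04. Proximal medians were -0.03 and -0.05. Between the hairpin groups themselves, shared inner and outer ISs had the same median of -0.03. Over all ISs of the hairpin table the median was -0.03 (-0.04 to -0.02) for inner and -0.07 (-0.1 to -0.04) for outer ISs. Hairpin cells differ from Rif1KO cells by infection, selection and possibly clone, and these cannot be told apart here.

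At the same ISs, Rif1KO over WT had -0.47 in the inner and -0.47 in the outer region, so the median did not step there. Rif1KO_shLacZ over WT, which by construction sums the other 2 ratios at each IS and so adds no evidence, had -0.02 in the proximal, -0.48 in the inner and -1.2 in the outer region, the last of which is 0.435 times the WT level, with 262 of 264 outer ISs below 0. For scale, the medians of the 18 other autosomes lay between -0.08 and 0.12 for this ratio, between -0.06 and 0.3 for Rif1KO over WT and between -0.3 and 0.16 for Rif1KO_shLacZ over Rif1KO.

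**Figure D3:**
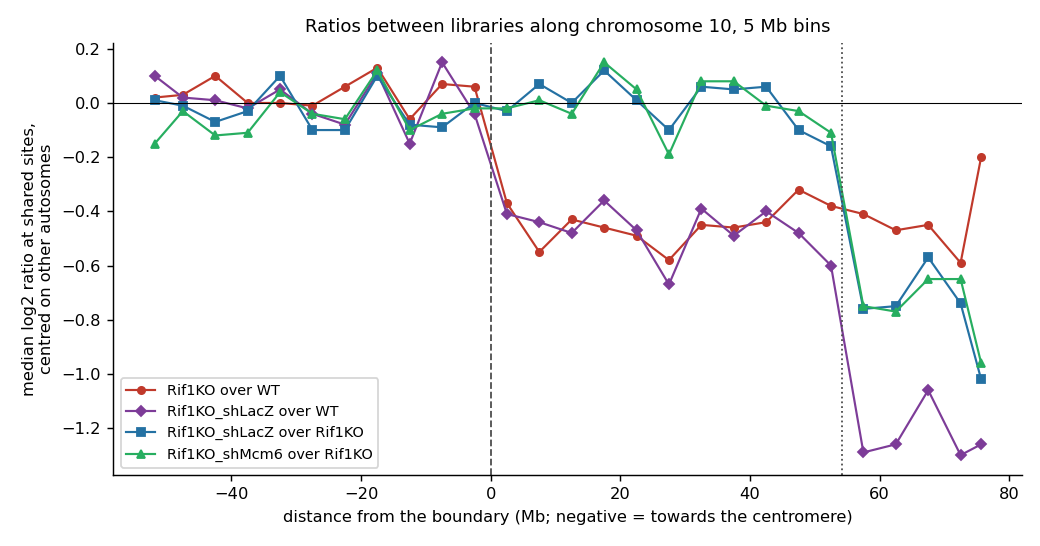
Median log2 ratio of density at shared ISs in 5 Mb bins (y axis, centred on the other autosomes) against the distance from the boundary in Mb (x axis), for 4 pairs of libraries. Rif1KO over WT drops at the boundary (dashed), both hairpin groups over Rif1KO drop at the second step (dotted), and Rif1KO_shLacZ over WT drops at both. The last bin holds 6 shared ISs.

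The ISs beside the second step are given as a description, since the step was placed on these same ratios. The last shared IS before it, intergenic and 92219 bp from the start of Ppp1r12a (a myosin phosphatase subunit), had 49 RPM in WT, 39.7 in Rif1KO, 15.7 in Rif1KO_shLacZ and 17.7 in Rif1KO_shMcm6 cells. After centring, Rif1KO_shLacZ over Rif1KO was -0.16 there. The 3 shared ISs before the step ranged from -0.23 to 0.09 and the 3 after it from -1.15 to -0.74. The lowest value, -1.15, rests on 50 Rif1KO and 56 Rif1KO_shLacZ reads. For Rif1KO_shMcm6 over Rif1KO the same ISs ranged from 0.1 to 0.61 before the step and from -0.56 to -0.33 after it. The stretch between the ISs on both sides holds all or part of Ppp1r12a, Pawr and Syt1, so the step is placed less finely than the boundary.

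As levels, mean reads per shared IS were compared with the mean over shared ISs of the other autosomes in the same library. In WT cells proximal ISs were at 0.901, inner distal ISs at 1.27 and outer distal ISs at 1.32 of that mean. In Rif1KO cells they were at 0.91, 0.911 and 0.946, so the 3 segments lay close together. In Rif1KO_shLacZ cells the levels were 0.909, 0.924 and 0.579, and in Rif1KO_shMcm6 cells 0.901, 0.909 and 0.584. The WT and Rif1KO values chose the boundary, and 41.9% of distal ISs were called in WT only, so the WT and Rif1KO levels are a description. Among shared ISs called in both WT and Rif1KO cells, the WT levels were 0.915, 1.24 and 1.23 and the Rif1KO levels 0.918, 0.927 and 0.911. At those ISs the outer level was 0.552 in Rif1KO_shLacZ and 0.563 in Rif1KO_shMcm6 cells.

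**Figure D4:**
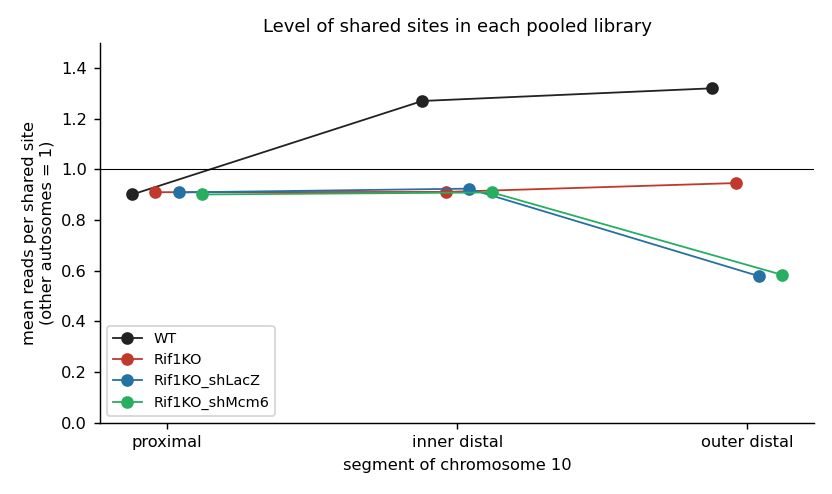
Mean reads per shared IS, divided by that of the other autosomes in the same pooled library (y axis), in the proximal, inner distal and outer distal segment (x axis). All 4 libraries lie between 0.901 and 0.91 in the proximal segment, WT lies apart in both distal segments (1.27 and 1.32), and both hairpin groups fall to 0.579 and 0.584 in the outer one.

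The share of chromosome 10 reads that fell in distal ISs needs no scaling between libraries. Distal ISs held 80.8% of the reads in ISs of chromosome 10 in WT cells (exact 95% interval 80.7 to 81%) and 74.9% in Rif1KO cells (74.7 to 75%). In both hairpin groups they held 60.8%, but in a table with other ISs, and without the outer ISs the shares of Rif1KO and Rif1KO_shLacZ cells were still 68.1% and 58.4%, so this gap is not a measure of the second step. At shared ISs, the only ones for which all 4 libraries can be set side by side, these shares were 79.4%, 73.3%, 72% and 71.9%. At shared distal ISs, with inner and outer ones pooled, the hairpin groups thus lay close to Rif1KO cells. Most of these ISs were inner (1142, against 264 outer), so the shares do not describe the outer region. There the levels were 0.579 and 0.584 in the hairpin groups, against 0.946 in Rif1KO cells. Outer ISs that overlap no IS of the hairpin table are not counted in these shares. The intervals cover counting error only, since reads include PCR copies.

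Fewer ISs of the outer region were found at all with a hairpin. Of the outer distal ISs of the Rif1KO against WT table, 44.9% (40.9 to 48.9%) overlapped an IS of the hairpin table, against 83.1% of the inner distal, 81.4% of the proximal and 84.3% of the other autosomal ISs. The lists of Rif1KO_shLacZ and Rif1KO_shMcm6 cells held 48 and 55.2 ISs per Mb in the inner region but 14.7 and 16.9 in the outer one, where the other autosomes had 40.1 and 46.1. WT and Rif1KO lists had no such drop, with 26.1 and 16 per Mb in the outer and 24.8 and 15.4 in the inner region. The loss depended on density: in the lowest of 4 density classes 24.1% of outer ISs were found again and in the highest 61.7%, where inner ISs had 74.7% and 87.1%. A ratio at a shared IS needs a peak in both tables, so the outer ISs that lost their peak are missing from the medians above. They are also missing from the levels and the shares of reads at shared ISs.

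The second step was then described by class of density, in subsets of the same ISs that had placed it. In the lowest class of mean density, Rif1KO_shLacZ over Rif1KO was -0.35 in outer ISs (35 ISs) and 0.28 in inner ones. In the highest class it was -0.89 (88 ISs) and -0.18. The other autosomes went from 0.24 to -0.25 over the same classes, so the ratio across tables fell with density everywhere, and inner distal ISs followed that trend. The classes rest on the mean density in WT and Rif1KO cells, which includes the denominator of the ratio. Part of this fall can therefore follow from how the classes were made.

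**Figure D5:**
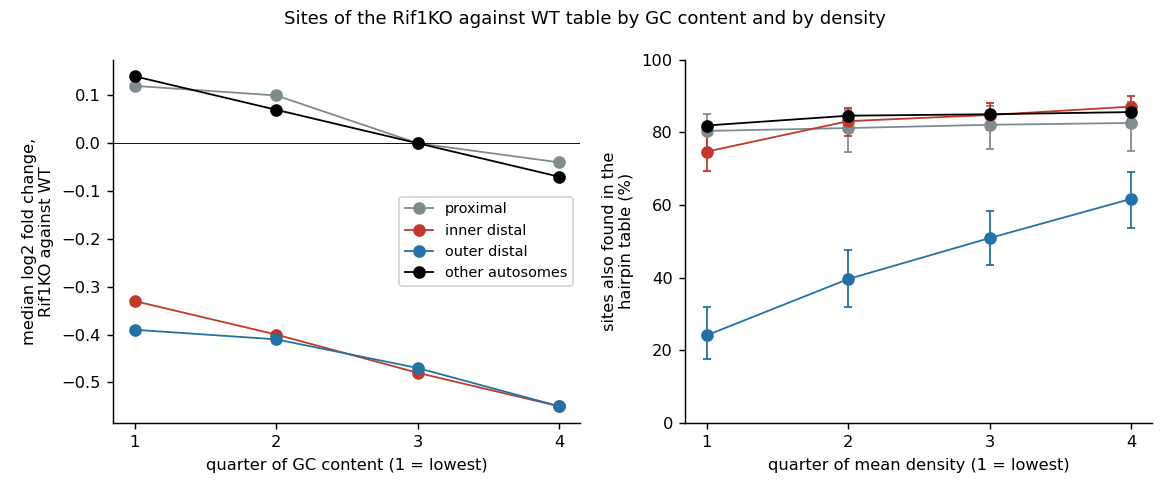
Left: median log2 fold change of Rif1KO against WT (y axis) by class of GC content (x axis, 4 equal classes) for 4 sets of ISs. Right: share of ISs of that table that overlap an IS of the hairpin table (y axis, %, bars are Wilson 95% intervals) by class of mean density (x axis, 4 equal classes). The inner and outer distal lines run about 0.5 below the other autosomes at every GC content on the left, and on the right the outer distal ISs lie below the other sets, between 24.1% and 61.7%.

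Promoters of protein-coding genes were counted in each list. In WT cells 15.6% of the 769 distal genes had a promoter IS (13.2 to 18.3%), against 4.71% of 276 proximal genes and 9.07% of genes on the other autosomes. In Rif1KO cells the shares were 10.7%, 5.07% and 8.97%. In Rif1KO_shLacZ cells 22.5% of the inner distal genes but 7.66% of the 248 outer distal genes had such an IS, and in Rif1KO_shMcm6 cells 25.3% and 8.87%, where the other autosomes had 17.6% and 20.5%. The outer share was below the inner one without a hairpin too, at 12.1% against 17.3% in WT and 9.27% against 11.3% in Rif1KO cells. The distal region is richer in genes, with 10.1 per Mb against 5.14 in the proximal region.

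The distal ISs with the highest WT density were at Aes, a Groucho-family corepressor gene (245 RPM in WT, 184 in Rif1KO), near Ntn4, a netrin (186 and 145 RPM), and in an exon of Kif5a, a kinesin, with the nearest start that of Pip4k2c (167 and 119 RPM). Their log2 fold changes were -0.41, -0.36 and -0.49, each with a counting error under 0.1, and all near the distal median. With hairpins the first pair, both inner, had 48 and 48.4 RPM in Rif1KO_shLacZ and 38.2 and 39.7 RPM in Rif1KO_shMcm6 cells. The IS in Kif5a, which is outer, had 26.5 RPM with the control hairpin and 39.9 RPM with the Mcm6 hairpin (0.59 ± 0.08, counting error). It therefore went the other way from the first pair, which had -0.33 ± 0.07 and -0.28 ± 0.07. The third densest distal IS of the Rif1KO_shLacZ library, 993 bp from a start of Adamtsl5, had 41.8 and 38.7 RPM with the hairpins (-0.11 ± 0.07).

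Among distal ISs of at least median density, the 3 lowest changes in Rif1KO against WT were at the start of Nxph4, a neurexophilin (-1.24 ± 0.16, 257 and 121 reads), 1943 bp from that start (-1.19 ± 0.23) and 240 bp from the start of Syde1 (-1.13 ± 0.24, 110 and 56 reads). The last lies in the inner region at chr10:78053968-78054469. It and the IS 1943 bp from the start of Nxph4 were called in WT only. The 3 highest changes were 0.11 ± 0.19, 0.08 ± 0.21 and 0.07 ± 0.19, each within its counting error of 0. They lay 418748 bp from Btg1, an antiproliferative gene, 1279326 bp from Lrrtm3 and 1835 bp from Vmn2r83, a vomeronasal receptor gene.

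Under the Mcm6 hairpin the 3 lowest distal ISs of at least median density lay in the inner region, which held 3334 of the 3799 distal ISs of that table. All 3 were below 0 in Rif1KO over WT, as were 98.8% of the shared distal ISs. The IS 153137 bp from Eea1, an early endosome gene, had 259 and 149 reads with the hairpins (-0.96 ± 0.15), and -0.52 ± 0.18 in Rif1KO against WT. In an intron of 2510003E04Rik, 15351 bp from a start of Srgn, a proteoglycan of secretory granules, the values were -0.94 ± 0.17 and -0.89 ± 0.2. This IS was called in Rif1KO_shLacZ only in the former contrast and in WT only in the latter. The third, 24732 bp from Ascc1, had -0.8 ± 0.14 and -0.65 ± 0.19. The highest were in introns of Mgat4c, a glycosyltransferase (1.78 ± 0.16, 103 and 397 reads), and Cradd, a death-domain adaptor (1.43 ± 0.16, 105 and 316 reads), both with no IS in the other table, and the IS 56348 bp from Usp44, a deubiquitinase (1.29 ± 0.12, 195 and 533 reads). That IS had 98 WT and 55 Rif1KO reads (-0.99 ± 0.24) and was called in WT only in that contrast. The IS in Mgat4c was called in Rif1KO_shMcm6 only. Over all 1406 shared distal ISs the Spearman correlation between both contrasts was 0.07, against 0.13 over those of the other autosomes, as a description.

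The counts of listed genes that follow are small and are read against all distal genes and promoter ISs. Of all 769 distal genes, 16.4% had a promoter IS in the Rif1KO against WT table and 22.8% in the table of the hairpin libraries. Of the 136 distal promoter ISs of the Rif1KO against WT table, 52.9% were lower by 1.5-fold, and of the 200 in the hairpin libraries 4% were higher and 5.5% lower. Of 12 genes of replication and the cell cycle, 2 had a promoter IS in the Rif1KO against WT table, both in the outer region, and 1 of them was lower by 1.5-fold. Timeless, a fork protection gene, had 47.2 RPM in WT and 30.6 in Rif1KO cells (-0.62 ± 0.18). Mdm2, the ligase of p53, had 42.7 and 29.3 RPM (-0.54 ± 0.18), at an IS called in WT only. In the hairpin table, Timeless had 8.31 and 8.47 RPM (0.03 ± 0.15) and the stress gene Gadd45b had 8.73 and 8.39 RPM (-0.06 ± 0.15). Cdk1, Cdk2, Cdk4, Prim1 and the other genes of the list had none in either table.

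Of 20 immune genes, 3 had a promoter IS in the Rif1KO against WT table, all below 0, as were 98.1% of all distal ISs, and 2 of them lower by 1.5-fold. Cd63, a tetraspanin gene, went from 86.3 to 45.9 RPM (-0.91 ± 0.14), Egr2, a zinc finger factor of lymphocyte activation, from 24.8 to 14.2 RPM (-0.8 ± 0.25), and Stat6, the factor downstream of IL4, from 64.2 to 43.8 RPM (-0.55 ± 0.15). The ISs of Egr2 and Stat6 were called in WT only, a class in which 45.9% of distal ISs were lower. In the hairpin libraries 6 of the immune genes had a promoter IS, with 2 higher and 0 lower by 1.5-fold, small counts that were not tested. Cd63 went from 2.09 to 4.62 RPM on 44 and 109 reads (1.15 ± 0.26), and Icosl, the ligand of ICOS, from 3.56 to 5.47 RPM (0.62 ± 0.21). Both were called in Rif1KO_shMcm6 only, a class in which 16.3% of distal ISs were higher. Tcf3, Stat6, Arid5b and Mif ranged from -0.16 to 0.26. A gene can have several annotated starts, and the ISs of Stat6 and, among the chromatin genes, of Sirt1 and Dot1l, and among the proximal genes of Sgk1, were at starts of shorter transcripts well inside the gene.

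Of 8 chromatin genes, 2 had a promoter IS in the Rif1KO against WT table, both lower by 1.5-fold. Sirt1, a deacetylase, had 42.1 RPM in WT and 23.4 in Rif1KO cells (-0.85 ± 0.2). Dot1l, a histone methyltransferase, had 27.2 and 12.6 RPM (-1.11 ± 0.26), at an IS called in WT only. Dot1l had -0.48 ± 0.2 under the Mcm6 hairpin, and the other 6 had no promoter IS in either table. Of all 276 proximal genes, 6.52% had a promoter IS in the Rif1KO against WT table and 19.6% in the hairpin libraries. Of proximal promoter ISs, 5% were lower and 0% higher in the former, and 1.52% lower and 6.06% higher in the latter. Of 12 listed proximal genes, Fyn, Sgk1 and Rev3l had an IS in the Rif1KO against WT table, with changes from -0.19 to 0.1 and none past 1.5-fold. In the hairpin libraries 5 of the proximal genes had one, from -0.36 to 0.64, with Foxo3, called in Rif1KO_shMcm6 only, higher by 1.5-fold. These small counts were not tested.

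In sequence and gene context, which the choice did not use, distal ISs were nearer to those of the other autosomes than to proximal ones in promoters and GC content, but lay more often in exons than either. Of the distal ISs of the Rif1KO against WT table, 6.67% (5.67 to 7.84%) were at a promoter, against 3.03% (1.97 to 4.63%) of proximal and 6.38% of other autosomal ISs. In the hairpin table the shares were 5.26% (4.6 to 6.02%), 2.6% (2.05 to 3.29%) and 4.44%. Median GC content was 47.2% in distal, 44.9% in proximal and 46.9% in other ISs of the first table. Exon ISs made up 6.13% (5.17 to 7.26%) of distal, 2.42% of proximal and 4.22% of other ISs of that table, and 5.71% (5.02 to 6.5%), 3.15% and 4.16% of those of the hairpin table. Intergenic ISs made up 57% (54.8 to 59.1%) of distal and 58.2% of other ISs of the first table, and 57.1% (55.6 to 58.7%) and 62.8% of those of the hairpin table, in which the distal promoter share also lay above that of the other autosomes. A G4 motif lay in the central 300 bases of 48.4% (46.2 to 50.6%) of distal, 51% (47.2 to 54.8%) of proximal and 48.8% of all ISs of that table, and these intervals overlap. In the hairpin table it lay in 22% (20.6 to 23.4%) of inner and 34.2% (30 to 38.6%) of outer distal ISs, against 21.3% of all. The outer ISs of that table were also the ones most often found in the other, at 59.1% against 35% of the inner ones.

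Distal ISs with and without the motif had median changes of -0.47 (-0.48 to -0.45) and -0.43 (-0.45 to -0.42) in Rif1KO against WT, where the other autosomes had -0.01 and 0.07. Under the Mcm6 hairpin, 8.87% of distal ISs with the motif and 3.34% of those without were higher by 1.5-fold, and 2.69% and 1.86% were lower. On the other autosomes the shares higher were 8.68% and 3.82%, and the shares lower 2.02% and 1.33%. The distal medians lay close together, at -0.02 with the motif and -0.04 without. Distal ISs with the motif were also less dense, at 2.51 against 2.74 log2 RPM in Rif1KO_shLacZ cells.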

How the data were processed

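SNS-seq libraries of 4 groups of CH12 cells were processed by the authors, who trimmed reads (Trim Galore 0.6.4 with cutadapt 2.6), aligned them uniquely to mm9 with Bowtie 1.2.3, called peaks per replicate without input and merged ISs per contrast. The deposited tables hold log2 RPM values, scaled by the authors to the reads in the ISs of that table, 1 pooled value per condition. Other deposited columns name ISs and the condition in which each was called. Whole reads were recovered from the log2 values, and column totals give the depth.

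ISs were placed by their centre, and gene context came from GENCODE vM1. The distal ISs, the gene lists and the second step were chosen with earlier results of these data known. Counting errors of fold changes assume Poisson reads, shares have Wilson or exact 95% binomial intervals, and medians have order-statistic intervals over ISs. These cover counting error or spread among ISs, not replicates. Named ISs are the 3 highest and 3 lowest distal changes among ISs of at least median density, the 3 densest distal ISs in WT and in Rif1KO_shLacZ, and the 3 on each side of the boundary. The ISs beside the second step were added after seeing the data, and 1 sequence there is not reported here. Alternatives were a density filter, log2(RPM + 1), ISs called in both conditions, a 2-fold threshold, centring, a moved boundary, a stricter overlap and wider windows. Scripts ran in Python 3.11.15 with numpy 2.4.6, pandas 2.3.3, scipy 1.17.1 and pysam 0.24.0, and were tested on simulated data.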

Additional observations from a re-analysis of the deposited data

How the results depend on the processing

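Of 69 alternative values for 30 results, 23 stayed within the interval of the main value, 45 moved beyond it and 1 changed sign. Without ISs in the lowest of 4 density classes, with log2(RPM + 1) and with ISs called in both conditions, the distal median of Rif1KO against WT was -0.43, -0.43 and -0.41. The difference from the proximal median, -0.5, became -0.47 with that filter and -0.4 with ISs called in both. The share lower by 1.5-fold, 29%, became 25.6%, 26.2% and 18.5% under the same 3 settings, 2.21% at 2-fold and 33.9% after centring. In the hairpin table the median was -0.06 for ISs called in both. The share higher became 3.17%, 2.82%, 1.25% and, at 2-fold, 1%, and the share lower 1.27%, 0.842%, 0.849% and 0.105%. The distal shares of reads of WT, Rif1KO, Rif1KO_shLacZ and Rif1KO_shMcm6 were 79.4%, 73.3%, 72% and 71.9% at shared ISs, and 75.1%, 68.1%, 58.4% and 58.4% without ISs past the second step. Without those ISs, an alternative chosen after seeing the data, distal minus proximal was -0.46 for Rif1KO_shLacZ over WT (from -0.57). For Rif1KO_shLacZ over Rif1KO it turned from -0.07 to 0.03, because only inner ISs were left. The interval of that main value was -0.15 to 0.01, so its sign was not settled before. The outer minus inner difference, -0.73, was -0.66 with a reciprocal overlap of at least 50% and -0.63 with log2(RPM + 1). With shared ISs called in both WT and Rif1KO cells, also chosen after seeing the data, the levels against the other autosomes in the proximal, inner and outer segment were 0.915, 1.24 and 1.23 in WT, 0.918, 0.927 and 0.911 in Rif1KO, 0.925, 0.934 and 0.552 in Rif1KO_shLacZ, and 0.908, 0.91 and 0.563 in Rif1KO_shMcm6 cells. Promoters within 2 kb held 9.57% and 7.92% of distal ISs in the 2 tables, and a 500-base window held the G4 motif in 72.3% and 54%. Where no reason is given, the cause was not tested. No replicate could be left out, since values are pooled. No paired analysis was possible because the columns carry no replicate numbers.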
